A study of Rattus norvegicus with 6 samples.

Results

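The S100 proteins and the annexins, a family of small calcium sensors and a family of calcium-dependent membrane binders, were described in RNA from the inner medulla tip (IM tip), the terminal part of the kidney inner medulla. Members were taken by name, as the features whose name begins with S100 or with Anxa and a digit, which gave 44 of the 27321 features in the table, 31 for S100 and 13 for the annexins. Of these, 26 are single genes (15 S100 and 11 annexin). The other 18 features join a member's name to that of other genes, and together they held 23 reads, with at most 3 in any library, so they are not described further. All 6 libraries came from male Sprague-Dawley rats of 3 months and about 150 g. The control group (n = 3) received vehicle, which was 0.1 M citrate buffer at pH 4.0, and the STZ group (n = 3) received streptozotocin, a toxin of pancreatic beta cells that makes rats diabetic, at 62.5 mg/kg in that buffer. Both were injected into the tail vein and the IM tip was taken 15 d later. The labels give each library as a separate sample of its group, and nothing more on the animals behind the replicate numbers.

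S100 proteins are small proteins that carry EF-hands, the loop and helix motif that holds a calcium ion. They have no enzyme activity and mostly work as dimers, which open on binding calcium and then grip a target. Annexins bind acidic phospholipids through a repeated core that needs calcium, so they move to a membrane when the cell's calcium rises. The families meet in mixed complexes, in which an S100 dimer joins annexins through their N-terminal tails, as with S100A10 and annexin A2. Both families are known from many epithelia, including the collecting duct that fills much of the IM tip.

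Most mammalian S100 genes sit in a single cluster, and in the rat it lies on chromosome 2. In the table's build (rn4), 10 members from S100a1 to S100a9 lay between 182784817 and 182988147, a span of 203.331 kb. Within it S100a3, S100a4, S100a5 and S100a6 formed a block of 15.253 kb, in which neighbouring loci were 1247, 4282 and 1407 bp apart. S100a11 and S100a10 lay farther along the same chromosome, S100b was on chromosome 20, S100g on chromosome X, and the annexins were scattered over the genome. The block is shown by sequence because S100a5 was the only member of either family that passed the limma test described below, while the genes on both sides of it did not. The lines give the last 150 bases before the annotated start of each gene, 5′ to 3′ on the plus strand, from RefSeq on the later build GRCr8. The positions are chr2:178384363-178384512 for S100a3, chr2:178388379-178388528 for S100a4, chr2:178394971-178395120 for S100a5 and chr2:178398387-178398536 for S100a6, and capitals mark the motif matches named below.
S100a3: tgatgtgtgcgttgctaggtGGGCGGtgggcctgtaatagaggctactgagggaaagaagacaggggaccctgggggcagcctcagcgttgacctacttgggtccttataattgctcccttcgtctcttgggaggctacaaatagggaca
S100a4: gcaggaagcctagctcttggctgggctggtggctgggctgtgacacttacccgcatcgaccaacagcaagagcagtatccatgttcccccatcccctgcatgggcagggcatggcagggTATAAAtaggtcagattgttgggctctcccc
S100a5: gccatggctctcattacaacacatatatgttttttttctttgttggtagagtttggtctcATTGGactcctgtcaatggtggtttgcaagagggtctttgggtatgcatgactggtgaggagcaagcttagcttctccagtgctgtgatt
S100a6: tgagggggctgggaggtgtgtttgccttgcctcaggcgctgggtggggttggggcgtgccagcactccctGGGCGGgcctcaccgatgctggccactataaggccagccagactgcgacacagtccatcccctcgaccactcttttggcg

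The motifs were searched on both strands of the 250 bases before each start, in 33469 RefSeq promoters, of which 20 belong to the 26 single-gene members. S100a4 held the TATA box letters TATAAA at 31 to 26 bases before its start, and these letters occur in 12.9% of all promoters and in 5 of the 20. S100a3 held the GC box GGGCGG at 130 to 125 bases and S100a6 at 80 to 75 bases, and this motif occurs in 30.5% of all promoters and in 10 of the 20. S100a5 held neither. Its match was ATTGG, the CCAAT box read on the other strand, at 90 to 86 bases, and CCAAT on either strand occurs in 34.0% of all promoters and in 6 of the 20. The AP-1 letters TGACTCA or TGAGTCA occur in 4.05% of all promoters and were found in 2 of the 20. TGGAAA, the core letters of the element bound by the tonicity factor TonEBP, occurs in 19.7% and was also found in 2 of the 20. S100a6 was among these, with TGGAAA at 157 to 152 bases before its start, outside the printed window. None of the matches in the 4 printed sequences overlapped another. The G and C share of the printed window was 44.0% in S100a5, against 55.3% in S100a3, 58.7% in S100a4 and 66.0% in S100a6. These are matches of letters and not sites.

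The values are read counts divided by a size factor for each library (normalized counts), and 1 read was worth 0.763 to 1.11 of them. Whole reads could be recovered for 100% of the values, which gave 3412311 to 5575171 reads on features in a library. Reads were amplified by PCR and carry no molecular identifier, so the floor of 3 reads used for low genes covers counting error only. Lane and condition cannot be told apart, since the controls ran together on lane 3 while STZ replicates 1, 2 and 3 ran on lanes 7, 6 and 8. The test was limma on log2(normalized count + 1), over the 13486 features whose mean reached 5, with Benjamini-Hochberg adjustment over all of them and a threshold of 0.05. Fold changes are STZ over control on that log2 scale, on which the change of low genes is understated. The tissue label was checked with marker genes. The collecting duct genes Aqp2, Aqp3 and Aqp4 had 2137 normalized counts or more in every library, while Umod and Slc12a1, which mark the thick ascending limb outside the inner medulla, were also read in every library, Umod at 50.2 to 941.

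Members were read in very different amounts. Over the 6 libraries S100a6 took 96592 reads, S100a11 took 90506, Anxa5 took 43495 and Anxa1 took 41738, whereas 5 members stayed under the mean of 5. Transcript lengths were not used here, so these are read numbers and not an order of expression between genes. Summed over the family, S100 genes took 1.32%, 1.09% and 0.818% of the reads in the controls and 1.01%, 0.785% and 0.987% in the STZ libraries, means of 1.08% ± 0.25 and 0.926% ± 0.123 (SD, n = 3). Most of these reads were from S100a6 and S100a11, so the S100 sum mainly follows them. Annexins took 0.591%, 0.547% and 0.527% in the controls and 0.602%, 0.611% and 0.534% in the STZ libraries, means of 0.555% ± 0.033 and 0.582% ± 0.042. The groups overlapped for both sums, and the test did not set either difference apart (two-sided exact permutation test, p = 0.4 for each, where 0.1 is the smallest p that 3 against 3 libraries allow). In bulk tissue such as this, fewer cells of a type and less RNA per cell cannot be told apart.

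**Figure D1:**
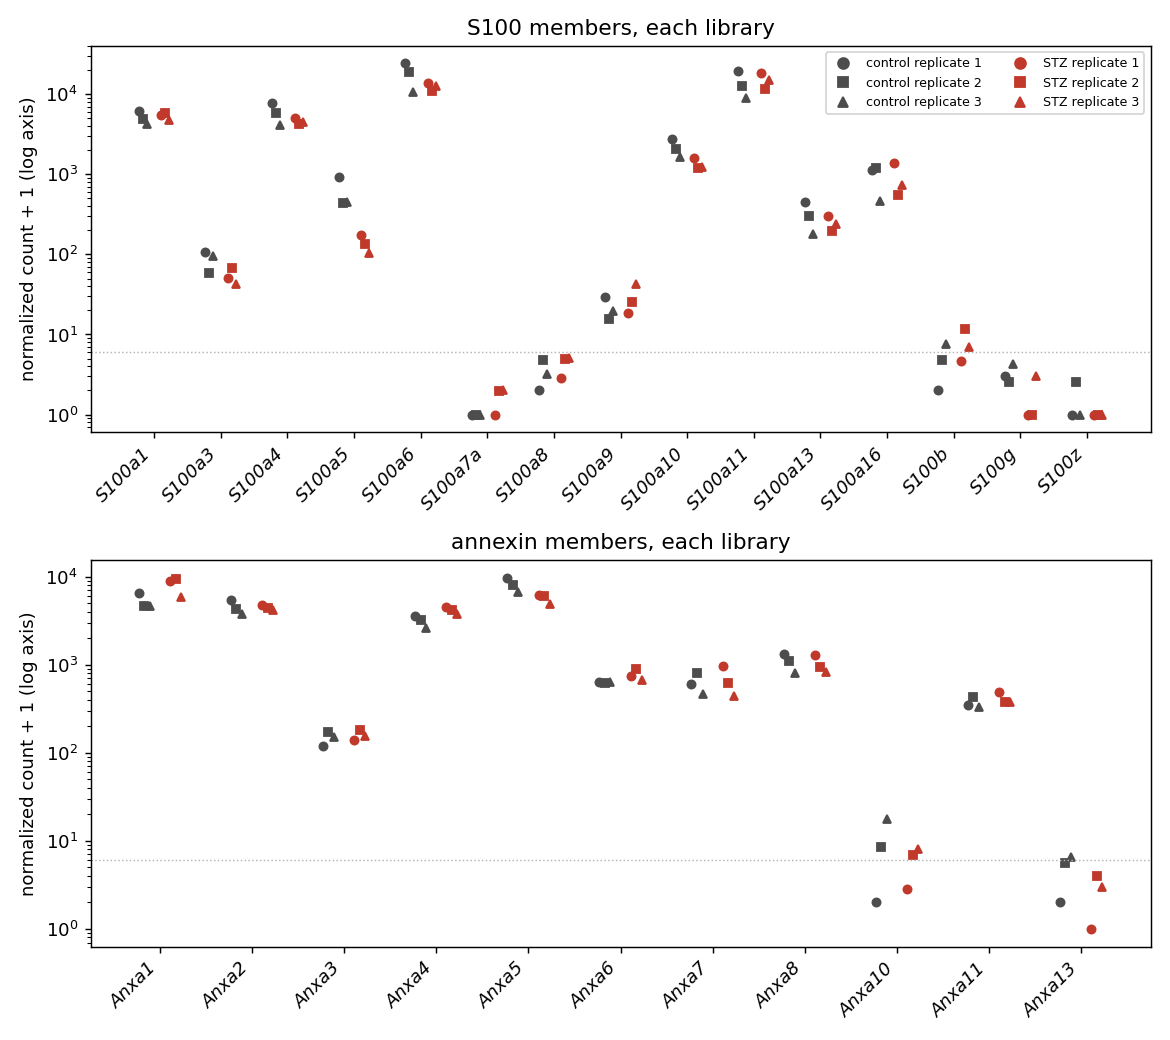
Normalized count + 1 (log axis) of each single-gene member in each of the 6 libraries, S100 genes above and annexins below, with controls in grey and STZ libraries in red, and a symbol for each replicate number. The dotted line marks the mean of 5 needed for the test. S100a5 is the member whose groups lie farthest apart, at 437 to 937 in the controls against 104 to 172 in the STZ libraries.

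Of the 21 members tested, 11 S100 and 10 annexin, 1 passed. It was S100a5, which fell, so that 1 of 11 S100 members and 0 of 10 annexins were called, against 2.1% of all features tested (1.17% higher and 0.927% lower). At an unadjusted p under 0.05 the counts were 3 S100 members and 2 annexins, against 14.7% of all features. On the recovered reads edgeR called 1 S100 member and 0 annexins, against 2.13% of all features, and DESeq2 2 S100 members and 0 annexins, against 4.44%. DESeq2 gave Anxa10 no adjusted p, and a feature without one is counted here as not called. The log2 fold change was above 0 for 4 S100 members and below 0 for 7, with a median of −0.25, and above 0 for 6 annexins and below 0 for 4, with a median of 0.08, where the median of all features was 0.01 and 49.5% of them lay below 0. The 3 control and 3 STZ values did not overlap for 2 S100 members, both lower in STZ, and for 3 annexins, 2 higher and 1 lower. The background for this is 20.3% of all features (10.1% higher and 10.3% lower).

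**Figure D2:**
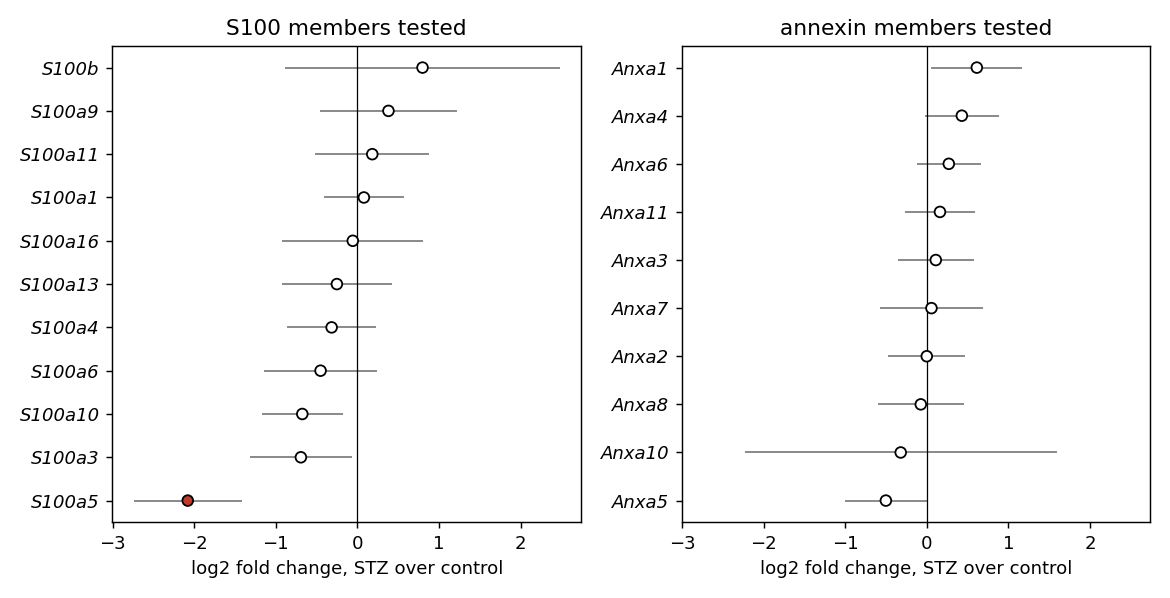
Log2 fold change, STZ over control, of the 11 S100 members (left) and 10 annexins (right) that were tested, with bars for the 95% confidence interval from limma. The filled red point, S100a5 at −2.08, is the member that passed at an adjusted p under 0.05, and open points did not pass.

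S100a5 (chr2:182891663-182893671) had the largest log2 fold change, in size, of the 11 S100 members tested. Its protein binds calcium tightly and is known mainly from olfactory sensory neurons. The controls had 937, 437 and 449 normalized counts and the STZ libraries 172, 134 and 104. Every STZ library was below every control, and the control of replicate 1 stood above the other two. The means were 608 ± 285 and 137 ± 33.8 (SD, n = 3), a ratio of 0.225, and the log2 fold change was −2.08 (SE 0.30, 95% confidence interval −2.74 to −1.42, limma adjusted p = 0.0069). It ranked 50 by p among all features and had the 15th lowest fold change among the 283 called. Without the high control it was −1.72 with an adjusted p of 0.011, and over the 6 fits that each left out a library the adjusted p ran from 0.0053 to 0.031. The call was lost without the filter on low values (adjusted p = 0.17) and without the intensity trend in limma's prior variance (adjusted p = 0.11), and over all 18 alternatives the adjusted p ran from 2.3e-09 to 0.17. S100a5 is also among the genes that the study picked from these same libraries, so its direction here is not independent evidence.

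S100a3, S100a4 and S100a6 flank S100a5 and none of them passed. S100a3, which binds zinc as well as calcium and is best known from the hair follicle, had 106, 58.0 and 94.6 normalized counts in the controls and 49.2, 66.3 and 41.2 in STZ. The groups overlapped, and the change on the log2 scale was −0.69 with an SE of 0.28 (adjusted p = 0.27). S100a4, a binder of nonmuscle myosin that is often used to mark fibroblasts, had 7699, 5859 and 4162 against 5096, 4267 and 4476. All 3 STZ values lay within the range of the controls, and the change was −0.32 (SE 0.25, adjusted p = 0.65). S100a6 (calcyclin), a partner of the ubiquitin ligase adaptor CACYBP, had 24257, 18838 and 10728 against 13959, 10964 and 12526. Its STZ values also lay within the control range, with a change of −0.45 (SE 0.31, 95% confidence interval −1.14 to 0.24, adjusted p = 0.58).

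S100a5 was also set against each neighbour within a library, so that a shift common to both genes of a library cancels. The log2 ratio of S100a5 over S100a4 was −3.04, −3.74 and −3.21 in the controls and −4.88, −4.99 and −5.41 in STZ, a difference of −1.76. Against S100a6 the difference was −1.63 and against S100a3 −1.39. For all 3 neighbours the groups did not overlap, so S100a5 was lower relative to its block in each STZ library, at the smallest p the design allows (exact permutation test, p = 0.1, and 0.1 after Benjamini-Hochberg adjustment over the 3 pairs). These pairs were chosen after the values were seen. All 3 ratios share S100a5, the member already called, so they largely restate its own values and are not 3 separate results.

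The rest of the cluster lay on both sides of 0. S100a1, known from heart and skeletal muscle where it acts on calcium release channels, had 6214, 4970 and 4205 normalized counts in the controls and 5582, 5802 and 4728 in STZ, a log2 fold change of 0.08 (95% confidence interval −0.41 to 0.57). S100a13, which helps to release FGF1 from cells, changed by −0.25 (SE 0.31) and S100a16 by −0.06 (SE 0.39), with overlapping groups and adjusted p of 0.82 and 0.98. Among the other tested genes of the region none passed. The nearest to passing was Snapap, which encodes a SNARE-associated protein of vesicle fusion. It had 1996, 1901 and 1522 normalized counts in the controls against 1124, 1055 and 865 in STZ, without overlap (−0.83, SE 0.19, adjusted p = 0.056). Ilf2, the gene before Snapap, changed by −0.17 (SE 0.22, adjusted p = 0.84). LOC685385, which RefSeq names S100a14 and which the rule by name leaves out, had control and STZ means of 305 and 305 and a change of 0.06 (SE 0.25, adjusted p = 0.96).

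**Figure D3:**
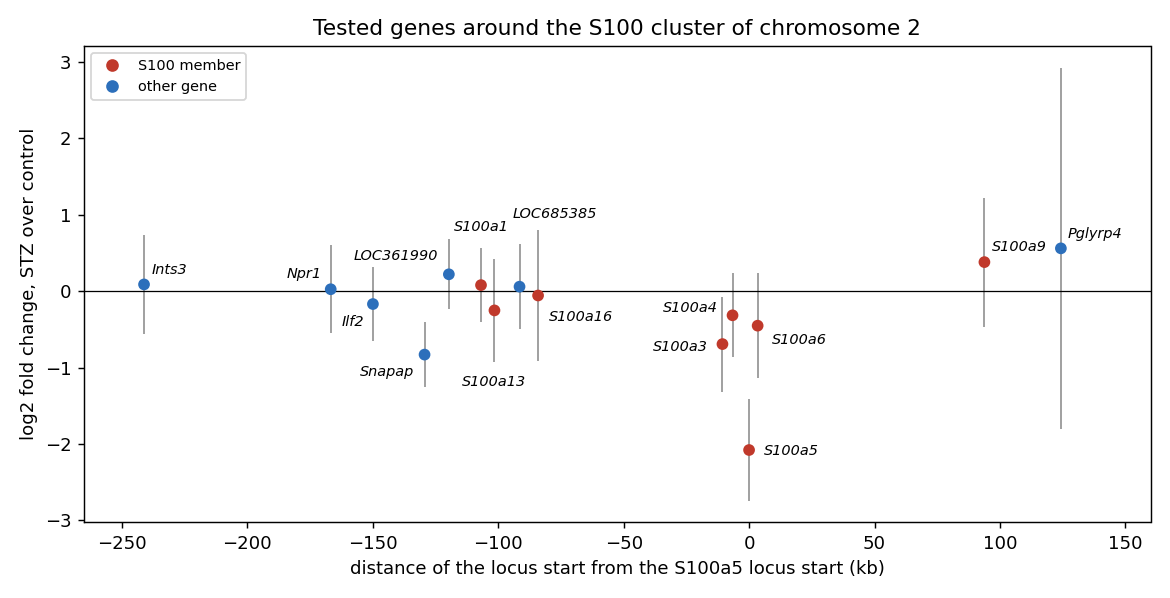
Log2 fold change, STZ over control, of every tested gene around the chromosome 2 cluster, against the distance of its locus start from that of S100a5 in kb, with 95% confidence intervals from limma as bars, S100 members in red and other genes in blue. S100a5 at −2.08 lies below its neighbours S100a3 at −0.69, S100a4 at −0.32 and S100a6 at −0.45.

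S100a8 and S100a9, whose proteins pair as calprotectin, the main calcium-binding protein of neutrophils, drew few reads. S100a9 had 28.7, 14.5 and 18.9 normalized counts in the controls and 17.6, 24.7 and 41.2 in STZ, with overlapping groups and a change of 0.38 (SE 0.38, adjusted p = 0.75). S100a8 had 18 reads in all and was above the floor in 3 libraries. The 9 neutrophil markers also drew few, with sums of 11.3 to 23.6 in the controls and 13.8 to 31.1 in STZ, and Mpo, Prtn3, Cxcr2, Mmp8 and Camp were at or under the floor in every library. The myeloid markers, 9 of 9 tested and none called, summed to 557 to 1034 in the controls and 857 to 1003 in STZ.

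Other S100 genes were barely read. S100b, the glial S100 protein, had 1.03, 3.81 and 6.68 normalized counts against 3.71, 10.9 and 6.02, and its fold change of 0.80 carries an SE of 0.76 (adjusted p = 0.73). S100g encodes calbindin-D9k, a cytosolic calcium carrier of calcium-transporting epithelia. It never exceeded 3 reads in a library, and neither did S100z or S100a7a, which had 2 reads each. S100g was thus not detectable above the floor at this depth in either group, and no fold is given for these genes or S100a8. The related list of epithelial calcium transport genes had 10 of 12 tested and 0 called, among them Trpv6 with 10.3, 9.92 and 16.7 normalized counts against 27.9, 20.8 and 23.1 (0.93, SE 0.35, adjusted p = 0.23) and Calb1, the larger calbindin, with 6.15, 12.2 and 15.6 against 2.79, 5.93 and 6.02 (−1.03, SE 0.57, adjusted p = 0.46).

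The pair that links the families best is S100a10 and Anxa2. S100A10 (p11) has lost the ability to bind calcium and is held with annexin A2 in a tetramer that docks on the plasma membrane and binds plasminogen and its activator. S100a10 (chr2:186645647-186654321) had 2752, 2103 and 1669 normalized counts in the controls and 1617, 1189 and 1233 in STZ. Every STZ value was below every control, though the gap between 1669 and 1617 is small. Its log2 fold change was −0.68 (SE 0.23, 95% confidence interval −1.18 to −0.18) and did not pass in limma (adjusted p = 0.17) or edgeR (adjusted p = 0.17). It passed in 4 of 18 alternatives, among them DESeq2 (adjusted p = 0.039), equal library totals (0.044) and quantile normalization (0.029). The other was a replicate block, though the replicate numbers were not taken as a pairing. Over all 18 the adjusted p ran from 0.029 to 0.48. Anxa2 (chr8:73897598-73934038) had 5462, 4262 and 3733 against 4782, 4371 and 4155. Its STZ values lay within the control range, and the change was −0.00041 with a 95% confidence interval of −0.47 to 0.47. RefSeq lists 8 pseudogenes of Anxa2 and 1 of S100a10. Uniquely mapped reads alone were counted, so any reads shared with near-identical copies would be missing from these values. Whether any were lost was not examined.

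The log2 ratio of S100a10 over Anxa2 was −0.99, −1.02 and −1.16 in the controls and −1.56, −1.88 and −1.75 in STZ. The groups did not overlap, and the difference of −0.67 had the smallest p possible here (exact permutation test, p = 0.1), which became 0.3 over the 3 binding pairs compared. Since the mean of Anxa2 hardly changed, this difference is nearly the fold change of S100a10 itself (−0.68) and adds little to it. For S100a11 over Anxa1, another known pair, the difference was −0.43 (p = 0.3) and for S100a6 over Anxa11 it was −0.61 (p = 0.2), both exact permutation tests with overlapping groups and an adjusted p of 0.3. The pairs were chosen after the values were seen. Plat, the tissue plasminogen activator that the annexin A2 complex binds, fell, from 11051, 14469 and 9503 normalized counts to 4539, 4625 and 3861 (−1.41, SE 0.23, adjusted p = 0.012). It was the 1 gene called among 10 tested of 14 listed partners and receptors, where 2.1% of all features tested were called and 0.927% were called lower. Pdcd6ip (ALIX), whose adaptor PDCD6 also binds annexins A7 and A11, had 56.4, 58.0 and 55.7 against 261, 105 and 75.3, without overlap (1.15, SE 0.37, adjusted p = 0.16). Cacybp, the S100A6 binder, had 1697, 1462 and 1227 against 1228, 1047 and 895, ranges that barely overlap (−0.47, SE 0.20, adjusted p = 0.31). Ager, the receptor RAGE for several secreted S100 proteins, had 3.81 to 10.3 in the controls and 5.02 to 14.9 in STZ (0.45, SE 0.62, adjusted p = 0.85).

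**Figure D4:**
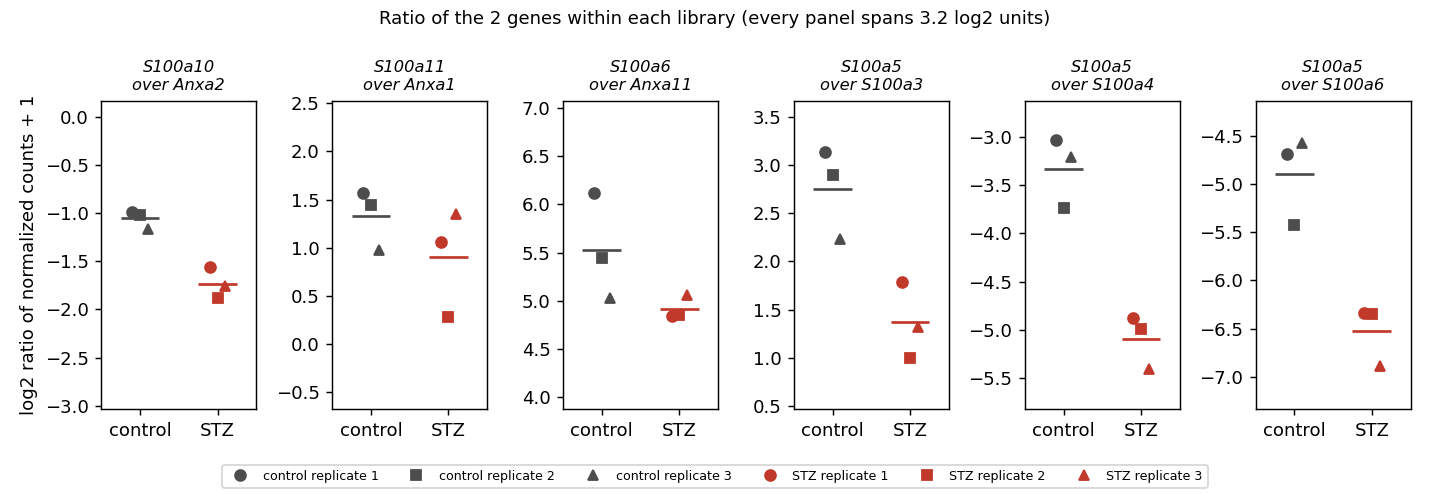
Log2 ratio of normalized counts + 1 of a pair of genes within each library, for 3 pairs whose proteins bind each other (left) and for S100a5 over its 3 cluster neighbours (right), with controls in grey, STZ libraries in red and a horizontal bar at each group mean. The groups do not overlap for S100a10 over Anxa2 (−1.16 or higher in the controls, −1.56 or lower in STZ) or for the 3 ratios of S100a5, and they overlap for the other 2 pairs.

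S100a11 (chr2:186620359-186621911), the S100 partner of annexin A1, had 19315, 12711 and 9089 normalized counts in the controls and 18655, 11548 and 15126 in STZ. Both groups spanned a wide range, and the change was 0.18 (SE 0.32, adjusted p = 0.89). RefSeq lists 5 pseudogenes of it. Anxa1 (chr1:223478439-223494455), the glucocorticoid-induced annexin known for damping inflammation through formyl peptide receptors, had 6509, 4671 and 4619 against 8932, 9485 and 5929. Its highest control lay above its lowest STZ library, and the change of 0.61 (SE 0.25, 95% confidence interval 0.05 to 1.17, adjusted p = 0.28) was the highest of the annexins tested. Of the formyl peptide receptors, Fpr1 was at or under the floor in every library.

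Anxa4 and Anxa5 went in opposite directions without passing. Anxa4 (chr4:120889618-120947662), an annexin of secretory and tubular epithelia, had 3556, 3191 and 2577 normalized counts in the controls and 4524, 4191 and 3765 in STZ. All STZ values lay above all controls, with a change of 0.43 (SE 0.20, adjusted p = 0.37). Anxa5 (chr2:122949194-122979810), which coats phosphatidylserine on membranes and slows clotting, had 9663, 7982 and 6685 against 6176, 5993 and 4908. All STZ values lay below all controls, with a change of −0.50 (SE 0.23, adjusted p = 0.34). Over the alternatives tried the adjusted p ran from 0.084 to 0.65 for Anxa4 and from 0.064 to 0.60 for Anxa5.

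Anxa6 (chr10:40383974-40439683), the annexin with a doubled core, was the third without overlap. It had 629, 624 and 637 normalized counts in the controls, which lay close together, and 735, 883 and 675 in STZ (0.27, SE 0.18, adjusted p = 0.55). Anxa8 had 1323, 1091 and 798 against 1288, 937 and 819, ranges that nearly coincide, and a log2 fold change of −0.07 (SE 0.24). Anxa3, Anxa7 and Anxa11 changed by 0.11, 0.06 and 0.16 with SE of 0.21, 0.29 and 0.19, overlapping groups and adjusted p of 0.82 or above. RefSeq lists 4 pseudogenes of Anxa7. Anxa10, an annexin of the stomach lining, had 41 reads in all and ran from 1.03 to 16.7 normalized counts, so its change of −0.32 has an SE of 0.87. Anxa13, known from intestine and kidney epithelium, had 17 reads in all, with at most 6 in a library, and was not tested.

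The other lists of related genes are read against the 2.1% called over all features tested, a share at which lists of this size would hold few calls or none. Of 40 other EF-hand proteins 33 were tested and 0 passed in limma. Calm3, a calmodulin gene, was nearest, with 381, 197 and 343 normalized counts in the controls against 720, 536 and 532 in STZ, without overlap (0.996, SE 0.26, adjusted p = 0.080). The secreted EF-hand protein Sparc had 1459, 1429 and 1421 against 2460, 1990 and 1932, also without overlap (0.56, SE 0.18, adjusted p = 0.16). Of 15 copines and ferlins, which bind membranes through C2 domains in place of the annexin core, 6 were tested and 0 passed. Among them Myof had 232, 223 and 193 against 427, 340 and 270 (0.66, SE 0.21, adjusted p = 0.15). Of 7 genes of the fused type, in which an S100 domain heads a long skin protein, Flg and Rptn were examined and both stayed at or under the floor. In each list the rest were under the mean of 5 or not analysed here.

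Libraries of the same group differed in the S100 genes as a whole. The median log2 distance of the 11 tested S100 members from their group mean was 0.43, −0.02 and −0.35 in the controls, in the order of their replicate numbers, and 0.17, −0.11 and −0.06 in the STZ libraries. For the 10 annexins it was 0.10, 0.05 and −0.21 in the controls and 0.12, 0.05 and −0.16 in STZ. Most S100 loci are short, and the 466 loci of at most 3000 bp with a mean of at least 100 gave 0.26, −0.02 and −0.27 in the controls and 0.13, −0.01 and −0.13 in STZ, against 0.13, −0.0033 and −0.14 in the controls and 0.10, 0.02 and −0.13 in STZ for 4434 longer loci. Short and longer loci thus differed more in the controls than in the STZ libraries, where they gave similar values. The median log2 fold change of the short loci was −0.09 and that of the longer ones 0.0040. The part of locus length in the S100 values was not tested.

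Marker genes of several cell types also differed between the groups. Of 5 endothelial markers tested Emcn fell and Vwf rose, and the list summed to 6796 to 8780 normalized counts in the controls and 3695 to 4099 in STZ. Of 5 urothelial markers Upk1b and Upk3a rose, with sums of 85.4 to 132 and 440 to 517. Tagln rose among 4 smooth muscle markers (sums of 485 to 538 and 835 to 932), and Umod fell among 3 of the thick ascending limb (1111 to 1802 and 418 to 864). The collecting duct markers, 4 tested and 0 called, summed to 10761 to 18696 and 18305 to 35361. Of the distal convoluted tubule 4 were tested and 0 called (45.1 to 94.6 and 62.2 to 134), and of the proximal tubule 2 were tested and 0 called (14.4 to 63.4 and 17.6 to 59.2). A sum follows the genes with the most counts. The median log2 fold change of the tested markers was −0.56 for endothelium, 0.96 for urothelium and 0.16 for smooth muscle. It was −1.47 for the thick ascending limb, 0.87 for the collecting duct, −0.02 for the distal convoluted and −0.05 for the proximal tubule. Over all features tested 2.1% were called. The part of these cell types in the values of S100a5, S100a10 or the annexins was not tested.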

How the data were processed

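RNA of the IM tip of control and STZ rats, 3 samples of each group, was made into cDNA with the SMARTer PCR kit. The cDNA was fragmented with DNase I and sequenced on a HiSeq2000. The authors used STAR 2.3.1t and the rn4 genome for alignment, counted uniquely mapped reads per gene and normalized them with DESeq 1.16.0. Which program counted the reads, and whether it used strand, is not given in the sources used here, so overlapping antisense genes could share reads. In the deposited table the signal of a feature is its count over the size factor of the library, as the authors made it. Every value was a whole multiple of a single step in its library (tolerance 0.01 reads), so reads were recovered, 3412311 to 5575171 per library. All 6 columns were matched to samples through the labels, which give the groups.

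The comparison of STZ with control was fitted by limma 3.58.1 (R 4.3.3) to log2(normalized count + 1), with the prior variance following intensity, over the 13486 features whose mean reached 5, and p was adjusted after Benjamini and Hochberg (threshold 0.05). The p-values of limma set the difference between the groups against the spread between libraries within a group. They cover these samples only, and the difference cannot be told apart from lane. Family shares and ratios were compared by exact permutation (two-sided, 3 libraries against 3). Values in every library are given for members that passed, members whose groups do not overlap and the 5 of each family with the highest mean, and other genes come from lists of related genes and cell markers. Some marker genes are not reported here. LOC685385, the neighbours of the cluster and some further members and list genes were named after their values were seen. The members and lists were chosen with earlier results of these data known. Alternatives tried were a pseudocount of 0.5 or 5, a minimum mean of 1 or 20 or none, quantile normalization, equal library totals, robust moderation in limma, limma with no trend, edgeR 4.0.16 and DESeq2 1.42.0 on the recovered reads, a replicate block, and each library left out in turn. The methods were also run on simulated counts, with the same dispersion for every gene and no shifts between libraries beyond depth. That run does not show how they perform on these data. Promoters came from RefSeq (GRCr8), which was matched by symbol to 26 of 26 single-gene members. Further steps ran in Python 3.11.15 with scipy 1.17.1, numpy 2.4.6 and pandas 2.3.3, and matplotlib 3.10.9 drew the figures.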

Additional observations from a re-analysis of the deposited data

How the results depend on the processing

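Over 18 alternatives, annexin members called stayed at 0. S100 members called, 1 as reported, became 0 without the filter on low values and 0 without the intensity trend, and 2 (S100a5 and S100a10) with equal library totals, quantile normalization, DESeq2 and the replicate block. It was 1 in every fit that left out a library, from 1 to 1. Features called over the whole table, 283 as reported, became 98 without the filter, 522 with quantile normalization, 31 without the trend, 599 with DESeq2 and 561 with the replicate block, and ran from 88 to 352 when a library was left out. The cause of these shifts was not tested. The fits that left out a library also had fewer samples, and the count of 352 came without control replicate 3.

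Of 376 recomputed fold changes of single members, 352 kept direction and side of the threshold, 4 gained the call (S100a10), 2 lost it (S100a5) and 18 changed sign, none of them called. The DESeq2 value of Anxa10, which has no adjusted p, is among the 352. With quantile normalization Anxa2 became 0.020. When a library was left out, the log2 fold change ran from −1.19 to 0.37 for Anxa10, −0.12 to 0.15 for Anxa2, −0.041 to 0.23 for Anxa3, −0.24 to 0.32 for Anxa7, −0.27 to 0.094 for Anxa8, −0.055 to 0.23 for S100a1, −0.080 to 0.46 for S100a11, −0.60 to 0.067 for S100a13 and −0.49 to 0.24 for S100a16. It kept its sign for the other members tested, among them S100a5 (−2.27 to −1.72) and S100a10 (−0.85 to −0.49), though with wide swings for S100a4 (−0.55 to −0.10), S100a6 (−0.78 to −0.19), S100a9 (0.065 to 0.65) and S100b (0.27 to 1.23).

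The replicate numbers are shared by control and STZ samples. Deviations from the group means correlated by r = 0.395, −0.061 and 0.323 between same-numbered libraries, and control replicate 2 correlated best with STZ replicate 1 (0.107), so the numbers were not taken as a pairing. With the replicate block S100a10 had an adjusted p of 0.047 and S100a5 of 0.00060. Depth limits S100a7a, S100g and S100z, which never exceeded 3 reads in a library.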
